A study of Mus musculus with 12 samples.

Results

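Confluent monolayers of mouse colonic epithelium were compared between day 4 and day 3 of culture, the step over which the labelled transepithelial resistance rises from 526 ± 56 to 623 ± 15 ohm cm2. The comparison took the libraries whose titles name these days, 3 per day and 6 of the 12 in the series, and covered every gene of their count files. The other 6 libraries are 3 of day 5 monolayers (407 ± 53 ohm cm2) and 3 of crypts. Per the labels, crypts of a wild-type (WT) mouse aged 6 to 10 weeks were grown on collagen as monolayers, and their cells were then replated on scaffolds with graded cross-linking. No strain, further allele or agent is named, and day 3 and day 4 differ in the labels only by day and resistance. The whole monolayer was lysed, so each library averages all cells of a sheet. The labels do not say if the libraries of a day stem from different animals or dishes, and p-values therefore reflect no more than the spread among these libraries, which may be technical. The type of error of the resistance is not named either, and resistance was given per day, not per library.

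Colonic epithelial cells form a sheet that absorbs salt and water, and neighbouring cells are sealed by tight junctions and held together by adherens junctions and desmosomes. Transepithelial resistance measures how strongly such a sheet opposes the flow of ions, mostly between the cells. In the intact colon, cells divide at the base of the crypt and mature as they move to the surface, where they carry transporters, microvilli and enzymes that handle foreign compounds. Epithelium under repair, and cells spreading in culture, use growth factor, YAP and AP-1 programmes and genes of the fetal gut.

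Levels are library-scaled counts (CPM), with TMM factors from the 6 libraries, and changes are log2 fold changes of day 4 over day 3 with their standard error (SE). The SE was derived from the change and its test statistic, and is not the spread of the libraries of a gene. Genes were called at an adjusted p under 0.05 in edgeR's quasi-likelihood test. Gene counts per library were 8289826 to 14290393. Libraries of a day correlated at 0.982 to 0.989 (day 3) and 0.975 to 0.977 (day 4), against 0.964 to 0.978 between days. The first principal component (37.3% of the variance) put the days on opposite sides, and the second (21%) set day 4 replicate 3, at -33.8, apart from day 4 replicates 1 and 2, at 17.6 and 11. Of all gene counts, the nuclear Malat1 made up 5.81 ± 0.165% at day 3 and 7.72 ± 0.325% at day 4 (SD, n = 3), and the ribosomal RNA precursor Rn45s 8.91 ± 0.0808% and 7.12 ± 1.03%. Epithelial markers (Epcam, Cdh1, Krt8, Krt18, Krt19 and Cldn7) summed to 13400 to 13900 CPM at day 3 and 11800 to 12100 at day 4. The 4 leukocyte markers summed to 0.703 to 2.8 CPM at day 3 and 1.45 to 7.82 at day 4. Of 6 mesenchymal markers, Col3a1 and Dcn had no count, and the sum was 0.683 to 1.48 and 1.09 to 3.54 CPM. Surface colonocyte genes were uneven: Car4 had no count, while the 6 colonocyte markers summed to 1460 to 1510 CPM at day 3 and 1150 to 1720 at day 4, nearly all of it Car1.

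Of 23420 genes, 11985 had enough counts to be tested. Day 4 was higher for 583 of them (4.86%) and lower for 561 (4.68%), 9.55% in all. The changes were mostly small: the median fold among called genes was 1.38 upward and 1.39 downward, and a change of at least 2-fold was called for 71 genes upward and 60 downward. The median over all tested genes was -0.005 on the log2 scale. Fitting all 12 libraries together, where crypts and day 5 add their spread, called 205 genes higher and 151 lower. The balance of higher and lower calls stayed between 48.5 and 57.6% higher under the alternatives run, and 444 and 430 genes were called with the replicate number as a block. Gene groups are read below against the shares over all genes, 4.86% higher and 4.68% lower. Called or not, 13.9% of tested genes had all day 4 libraries above all day 3 libraries, and 14.3% had them all below. Lack of overlap between the days, given for single genes below, was thus common among all genes.

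**Figure D1:**
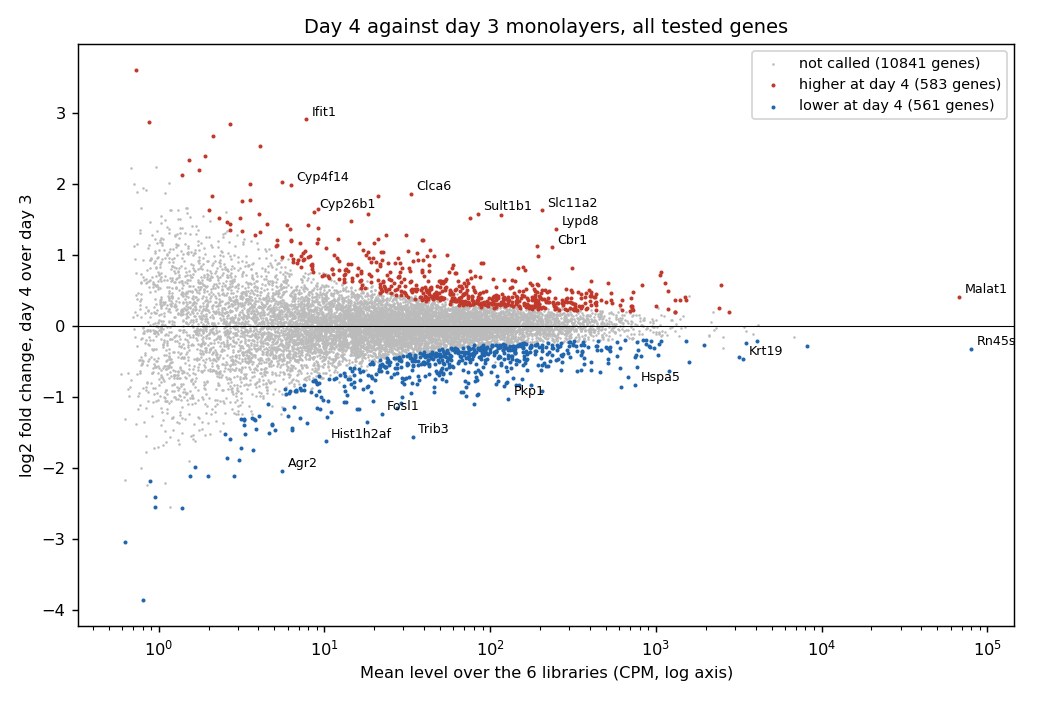
Each point is 1 of the 11985 tested genes: its mean level over the 6 libraries (CPM, log axis) against its log2 fold change, day 4 over day 3. The 583 genes called higher and 561 called lower are coloured.

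Among the 10 genes chosen for the largest increases were genes of foreign compound metabolism, ion and iron transport and antiviral defence. The antiviral effector gene Ifit1 stood at 1.46, 2.11 and 1.84 CPM at day 3 and 7.4, 19.7 and 14.2 CPM at day 4 (log2 change 2.90 ± 0.34, adjusted p = 7.85e-06). Clca6, of the calcium-activated chloride channel regulator family, stood at 16.3, 11.8 and 15.4 CPM at day 3 and 73.1, 51.9 and 30.9 CPM at day 4 (1.86 ± 0.21, adjusted p = 7.02e-06). All day 4 libraries lay above all day 3 libraries for both genes, which the rule that chose the 10 largest increases required. Slc11a2, the importer of ferrous iron, stood at 70.8, 113 and 118 CPM at day 3 and 415, 297 and 222 CPM at day 4 (1.63 ± 0.17, adjusted p = 2.99e-06). Sult1b1, a sulfotransferase gene, stood at 35.4, 44.4 and 47.3 CPM at day 3 and 143, 124 and 114 CPM at day 4 (1.58 ± 0.11, adjusted p = 2.12e-08). Its SE was the smallest of these 4 genes. A further 4 members of the group, Cyp4f14, Cyp2c55, Cyp2d26 and Cyp2d34, encode cytochrome P450 enzymes, with changes of 1.98 ± 0.28, 1.56 ± 0.20, 1.83 ± 0.22 and 1.52 ± 0.11. Cyp26b1, which degrades retinoic acid, went from 4.23 ± 1.74 to 13 ± 5.13 CPM (1.60 ± 0.30). Btnl5, a butyrophilin-like gene of the gut epithelium, went from 4.43 ± 1.41 to 13.8 ± 3.77 CPM (1.64 ± 0.27). Cyp2c and Cyp2d genes have near-identical copies, and reads that aligned to more than 1 place were not counted by the authors, so the share of each copy is uncertain.

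The largest decreases mixed secretory, stress and replication genes. Trib3, a pseudokinase gene induced by amino acid shortage, stood at 36, 60.6 and 56 CPM at day 3 and 11.5, 20.7 and 20.2 CPM at day 4 (-1.56 ± 0.19, adjusted p = 1.76e-05). The chaperone-like disulfide isomerase gene of goblet cells, Agr2, stood at 5.95, 12.2 and 8.49 CPM at day 3 and 0.841, 2.55 and 3.3 CPM at day 4 (-2.04 ± 0.39, adjusted p = 0.00132). Arid5a, an RNA-binding regulator of inflammatory transcripts, stood at 23.6, 30.5 and 24.5 CPM at day 3 and 8.41, 13.7 and 8.62 CPM at day 4 (-1.35 ± 0.19, adjusted p = 6.69e-05). Every day 4 library lay below every day 3 library for these 3 genes, which the rule that chose the 10 largest decreases required. S100a4, a calcium-binding protein of motile cells, went from 9.44 ± 1.44 to 3.36 ± 1.96 CPM (-1.46 ± 0.33), the lipase inhibitor gene Angptl4 from 7.42 ± 2.03 to 2.68 ± 0.936 CPM (-1.46 ± 0.34) and the cholesterol esterification gene Soat2 from 9.31 ± 3.43 to 3.48 ± 0.923 CPM (-1.43 ± 0.32). A further 3 replication-linked genes were among the 10: the histone gene Hist1h2af (-1.62 ± 0.24), the DNA polymerase gene Pola1 (-1.36 ± 0.42) and the nucleotide reductase gene Rrm2 (-1.29 ± 0.29). Grb10, an adaptor that dampens insulin signalling, fell by 1.28 on the log2 scale. Fewer cells of a type and less RNA per cell cannot be told apart in whole-monolayer libraries. Angptl4 lost its call without day 3 replicate 1 (0.0577), and so did Soat2 without day 3 replicate 3 (0.0514) and Pola1 without day 3 replicates 1, 2 and 3 and day 4 replicate 1 (0.167, 0.107, 0.0624 and 0.0548). Grb10 lost its call without day 3 replicate 2 (0.12). Without day 4 replicate 1, Grb10 moved to -0.85 and Pola1 to -0.81.

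**Figure D2:**
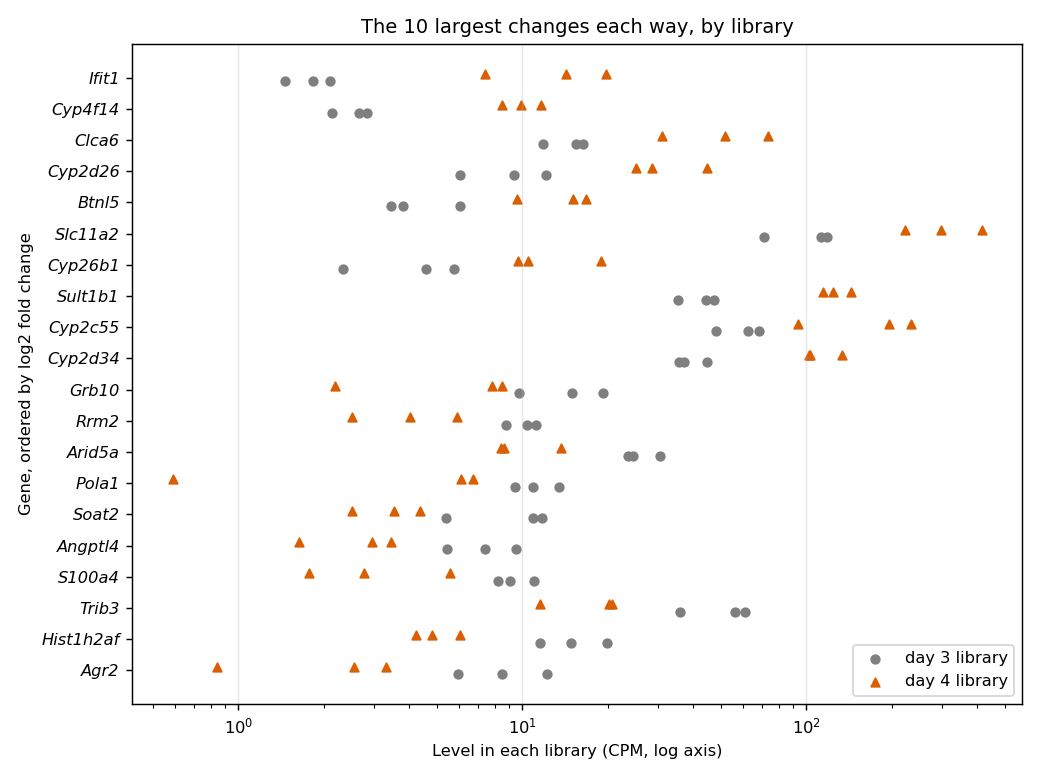
Level of each of the 10 genes with the largest increase and the 10 with the largest decrease in every library (CPM, log axis), circles for the 3 day 3 libraries and triangles for the 3 day 4 libraries. Triangles and circles of a gene do not overlap, as the rule that chose these genes required.

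**Figure D3:**
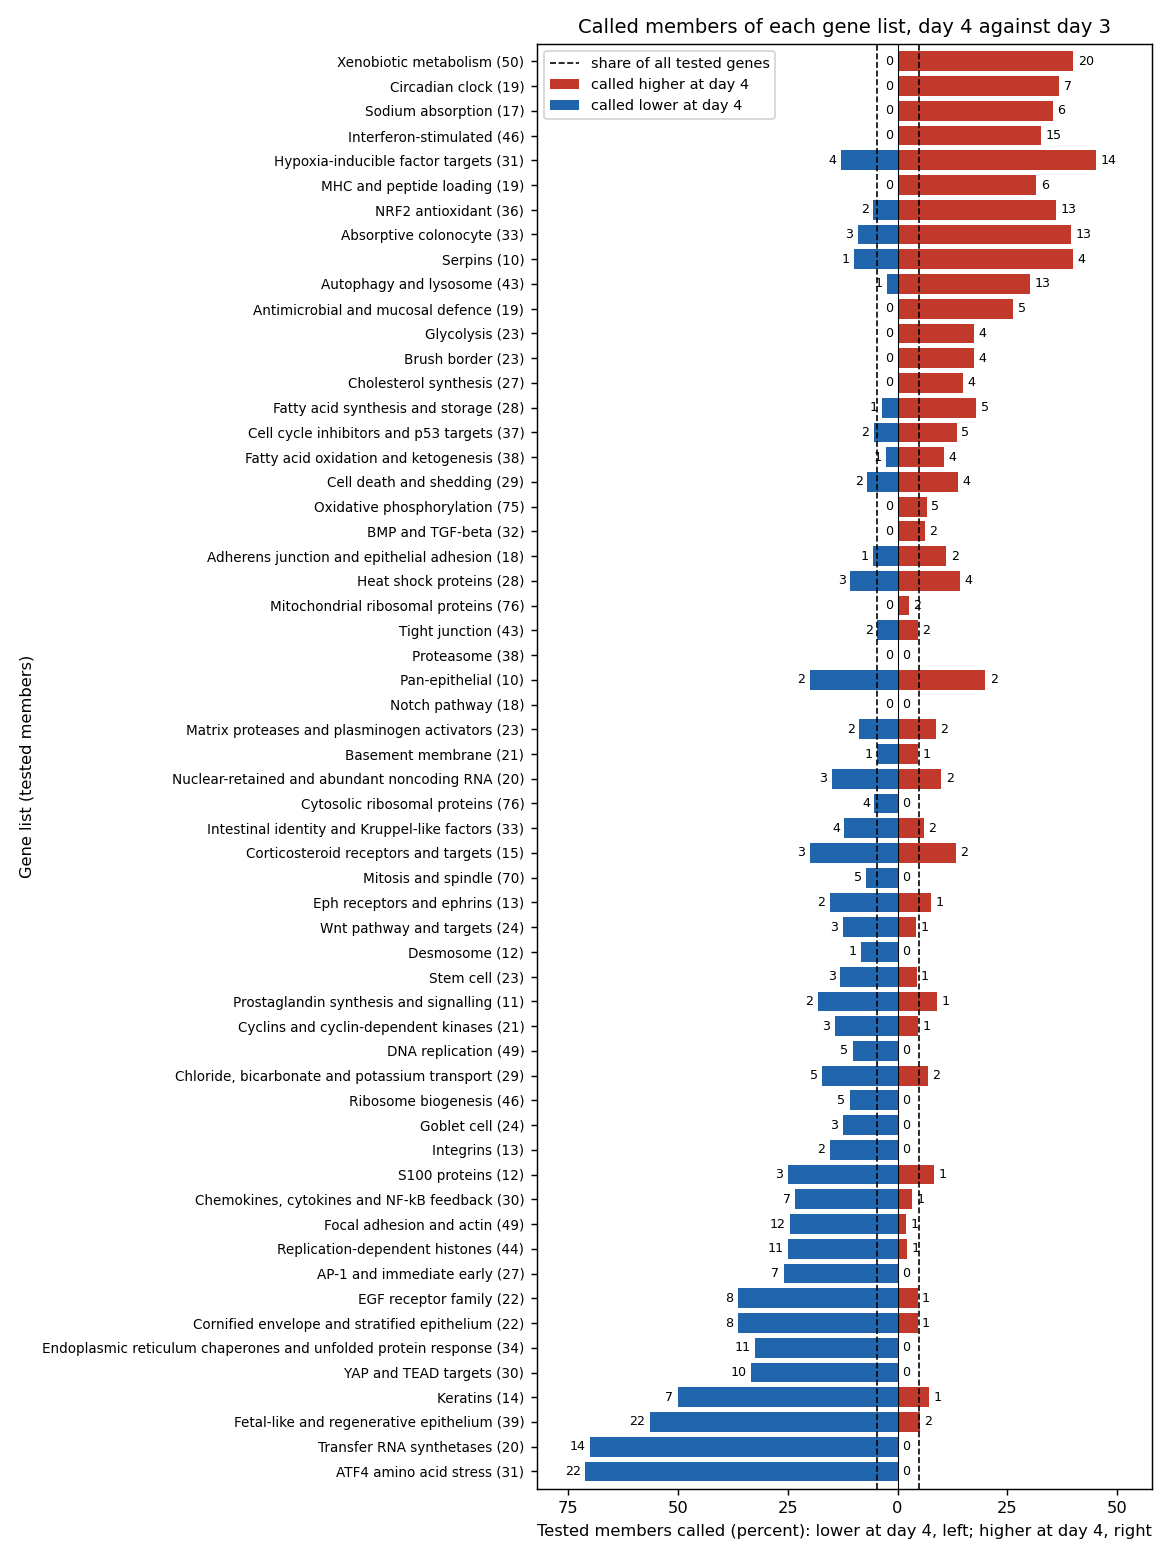
Percent of tested members called higher (right, red) and lower (left, blue) at day 4 for each gene list with at least 10 tested members, with the number called beside each bar. Dashed lines mark the shares over all tested genes, 4.86% higher and 4.68% lower. The amino acid response (22 of 31) and transfer RNA synthetase (14 of 20) lists extend farthest to the left, and the xenobiotic metabolism list (20 of 50) has the largest excess of higher over lower.

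Genes of amino acid supply fell together. ATF4, a transcription factor made when cells sense too little amino acid or stressed secretion, drives genes for amino acid import, synthesis and charging onto transfer RNA. Of 31 tested genes of this response 22 fell (71%, median -0.62), and of 20 cytosolic transfer RNA synthetase genes 14 fell (70%, median -0.44), against 4.68% of all genes. The factor's own gene Atf4 stood at 318, 363 and 366 CPM at day 3 and 271, 251 and 253 CPM at day 4 (-0.43 ± 0.07, adjusted p = 0.000363). The asparagine synthetase gene Asns stood at 161, 207 and 202 CPM at day 3 and 106, 107 and 108 CPM at day 4 (-0.83 ± 0.09, adjusted p = 3.48e-06). Slc7a11, the cystine importer gene, stood at 153, 212 and 219 CPM at day 3 and 113, 119 and 117 CPM at day 4 (-0.75 ± 0.10, adjusted p = 4.46e-05). No day 4 library reached a day 3 level for any of the 3. Among genes of serine synthesis, Psph went from 38.1 ± 4.19 to 17.1 ± 0.503 CPM (-1.16 ± 0.14, adjusted p = 9.42e-06), Psat1 from 92.4 ± 9.38 to 51.1 ± 5.84 CPM (-0.86 ± 0.10) and Phgdh from 58.2 ± 5.41 to 34.6 ± 0.795 CPM (-0.75 ± 0.11). Mthfd2, of mitochondrial one-carbon metabolism, changed by -0.99 ± 0.10. The large neutral amino acid importer gene Slc7a5 went from 39.7 ± 2.78 to 18.7 ± 2.58 CPM (-1.08 ± 0.14), and the cationic amino acid importer gene Slc7a1 changed by -0.82 ± 0.09. Chac1, which breaks down glutathione, changed by -0.95 ± 0.14, the phosphatase regulator gene Ppp1r15a, which restores translation, by -0.85 ± 0.10, and Ddit3 (CHOP), whose libraries overlapped between days, by -0.54 ± 0.14. Ddit3 lost its call without day 3 replicates 2 and 3 and day 4 replicate 3 (0.113, 0.0526 and 0.0695).

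Among the synthetases, which join an amino acid to its transfer RNA, the largest decreases were for tryptophan (Wars, -0.73 ± 0.09, adjusted p = 9.1e-06), asparagine (Nars, -0.62 ± 0.07, adjusted p = 1.28e-05) and methionine (Mars, -0.62 ± 0.10, adjusted p = 0.000191). Wars stood at 161, 180 and 170 CPM at day 3 and 90, 107 and 112 CPM at day 4. Qars, for glutamine, was not called (0.07 ± 0.08, adjusted p = 0.616), so the list did not move as a whole.

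**Figure D4:**
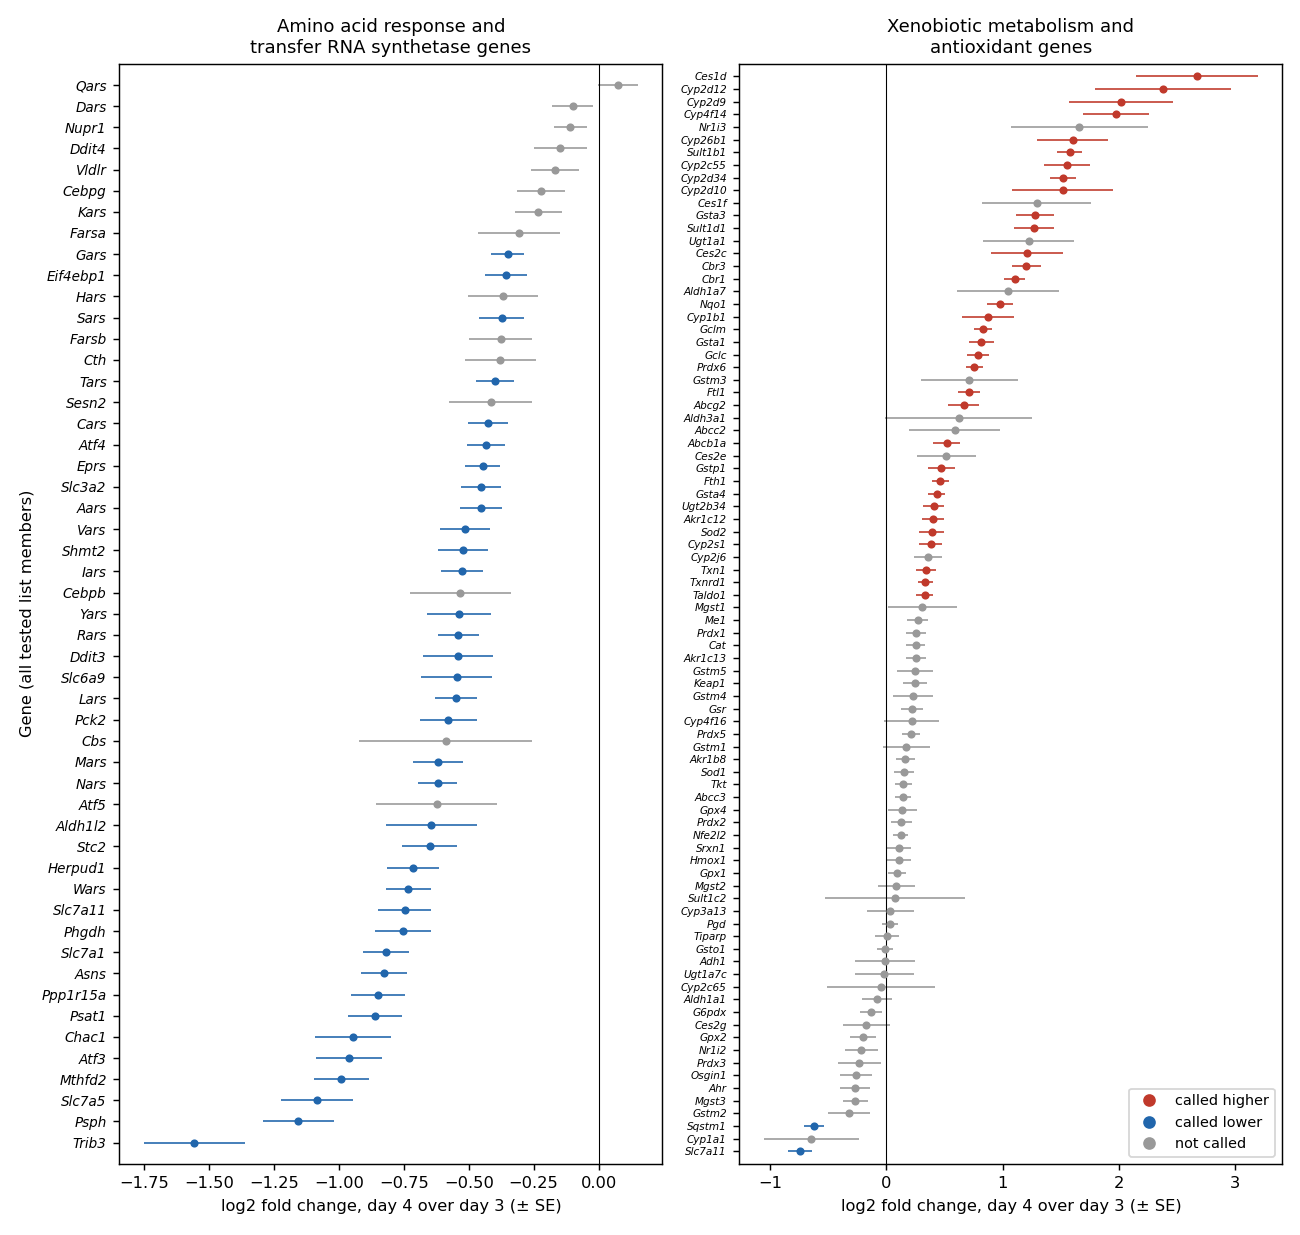
log2 fold change of day 4 over day 3 (± SE, n = 3 libraries per day) for every tested gene of the amino acid response and transfer RNA synthetase lists (left) and of the xenobiotic metabolism and antioxidant lists (right), red where called higher, blue where called lower and grey where not called. Of the left panel's genes, 36 are called lower and none higher, and of the right panel's genes 33 are called higher and 2, Sqstm1 and Slc7a11, lower.

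Promoters of these genes were searched for the amino acid response motif TGATGNAA, on both strands, in the 250 bases before the RefSeq start site. It was in 9 of the 26 called members of the 2 lists that matched a RefSeq promoter (34.6%), in 2 of 13 matched members that were not called (15.4%), in 2.42% of 8924 tested genes and in 3.91% of all 27025 genes with an entry. As background, ATF4 binds sequences of this kind, but a match describes letters and not a bound site. The motif and the 5 genes shown were chosen after the values were seen. Sequences are from RefSeq (GRCm38.p6), run 5′ to 3′ on the gene's strand up to the base before the start site, and carry matches to the motif or its reverse complement in capitals.
Asns (chr6:7693210-7693269, minus strand): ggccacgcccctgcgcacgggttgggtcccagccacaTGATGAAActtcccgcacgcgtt
Slc7a11 (chr3:50443614-50443693, minus strand): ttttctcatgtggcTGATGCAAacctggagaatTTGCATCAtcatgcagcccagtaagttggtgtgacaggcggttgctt
Atf3 (chr1:191183334-191183453, minus strand): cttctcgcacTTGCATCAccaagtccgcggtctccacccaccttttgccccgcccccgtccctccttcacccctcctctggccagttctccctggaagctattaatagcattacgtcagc
Aars (chr8:111033722-111033841, plus strand): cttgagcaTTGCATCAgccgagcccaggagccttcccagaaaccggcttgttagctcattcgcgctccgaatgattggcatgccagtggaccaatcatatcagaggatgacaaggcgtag
Tars (chr15:11399659-11399718, minus strand): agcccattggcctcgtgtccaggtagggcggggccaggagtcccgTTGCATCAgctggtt
Slc7a11 holds 2 matches, starting 66 and 47 bases before the start site, 1 on each strand. The match of Asns starts 23 bases before it and that of Tars 15 bases. Aars, the alanine synthetase gene, and Tars, the threonine one, changed by -0.45 ± 0.08 and -0.40 ± 0.07, less than Asns and Slc7a11 above.

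Chaperone genes of the endoplasmic reticulum, where secreted and membrane proteins fold, fell as well: 11 of 34 were lower (32.4%, median -0.20). The main chaperone gene Hspa5 (BiP) stood at 797, 1050 and 1030 CPM at day 3 and 509, 582 and 527 CPM at day 4 (-0.83 ± 0.09, adjusted p = 2.62e-06), with a gap between the days. Herpud1, of misfolded protein disposal, went from 102 ± 14.5 to 62.6 ± 1.8 CPM (-0.71 ± 0.10), and the secreted stress factor gene Manf changed by -0.65 ± 0.11. Herpud1 is also on the ATF4 list, so the counts of these lists are not independent. The regulator genes Atf6 (-0.57 ± 0.09) and Xbp1 (-0.43 ± 0.09) fell as well. Ostc, of the glycosylation complex, changed by -0.66 ± 0.12. Heat shock genes changed in both directions: the cytosolic Hspa1a (0.997 ± 0.18, adjusted p = 0.00104), Hspa1b (0.70 ± 0.12) and Hspb1 (0.71 ± 0.20) rose, while 3 genes of mitochondrial or cytosolic chaperones, Hspd1 (-0.46 ± 0.09), Hspa9 (-0.34 ± 0.07) and Cct3 (-0.32 ± 0.09), fell. Hspa1a and Hspa1b are near-identical copies, so their split is uncertain. Of 38 proteasome subunit genes edgeR called 0, with 1 higher and 3 lower at an unadjusted p under 0.05 and 0 higher and 0 lower by DESeq2. Hspb1 lost its call without day 3 replicates 1 and 3 and day 4 replicate 2 (0.112, 0.0855 and 0.063), and so did Cct3 without day 3 replicates 1 and 2 and day 4 replicates 1 and 2 (0.0955, 0.11, 0.148 and 0.0673). The count of endoplasmic reticulum genes called lower was 6 with all 12 libraries in 1 fit and 7 without day 3 replicate 2, against 11 above. The count of heat shock protein genes called higher was 0 with all 12 libraries in 1 fit and 2 with the 9 monolayer libraries in 1 fit, against 4 above.

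Markers of fetal-like, regenerating epithelium were mostly lower. Of 39 tested members 22 fell (56.4%) and 2 rose (5.13%), with a median of -0.27. Sprr1a, a cornified envelope gene induced in injured gut, stood at 842, 872 and 678 CPM at day 3 and 413, 473 and 433 CPM at day 4 (-0.86 ± 0.08, adjusted p = 1.27e-06). The annexin gene Anxa8 stood at 176, 200 and 178 CPM at day 3 and 95.1, 117 and 100 CPM at day 4 (-0.83 ± 0.09, adjusted p = 3.01e-06). Both had no overlap between days, as had the urokinase receptor gene Plaur, which went from 108 ± 6.34 to 67.7 ± 6.67 CPM (-0.67 ± 0.09, adjusted p = 4.46e-05). Krt19, a keratin gene of progenitor cells, went from 3900 ± 198 to 2830 ± 61.3 CPM (-0.46 ± 0.06). The 2 members that rose are surface antigens of the Ly6 family: Ly6a (Sca-1), a defining marker of this state, stood at 1320, 1460 and 1130 CPM at day 3 and 1780, 1710 and 1670 CPM at day 4 (0.40 ± 0.07, adjusted p = 0.000941), and Ly6c1 changed by 0.37 ± 0.09. The 2 are near neighbours in sequence, so their separation is uncertain. Msln, another marker, was at 784, 699 and 707 CPM at day 3 and 639, 607 and 694 CPM at day 4 and was not called (-0.17 ± 0.07, adjusted p = 0.114). Ly6c1 lost its call without day 3 replicate 3 (0.0514). The count of fetal-like genes called lower was 10 with all 12 libraries in 1 fit, against 22 above.

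Some growth factor and YAP target genes fell. YAP is a coactivator that enters the nucleus of spread cells and acts through TEAD factors. Of 30 tested targets 10 fell (33.3%, median -0.14): the matricellular genes Ctgf (927 ± 39.8 to 692 ± 135 CPM, -0.42 ± 0.09, adjusted p = 0.00525) and Cyr61 (-0.44 ± 0.12), the factor gene Tead4 (58.7 ± 5.14 to 32.4 ± 3.2 CPM, -0.85 ± 0.11, adjusted p = 3.76e-05) and the adaptor gene Ajuba (-0.40 ± 0.09) among them. Of 22 genes of the EGF receptor family 8 fell and 1 rose. The ligand gene Areg stood at 754, 916 and 859 CPM at day 3 and 493, 533 and 510 CPM at day 4 (-0.72 ± 0.07, adjusted p = 1.7e-06). Ereg stood at 150, 163 and 163 CPM at day 3 and 88.9, 97.4 and 90.5 CPM at day 4 (-0.78 ± 0.08, adjusted p = 2.22e-06), and Btc changed by -0.74 ± 0.10. All 3 ligands were lower in every day 4 library. The feedback inhibitor genes Spry4 (-0.97 ± 0.23) and Dusp5 (-0.60 ± 0.15) and the effector gene Etv4 (-0.74 ± 0.21) of the same pathway fell too. The receptor gene Erbb2 went the other way (0.38 ± 0.07, adjusted p = 0.00162). Of 27 AP-1 and immediate early genes 7 fell, led by Fosl1 (31.1 ± 2.68 to 13.2 ± 1.16 CPM, -1.24 ± 0.15, adjusted p = 1.28e-05) and Atf3 (-0.96 ± 0.13), with Fos at -0.53 ± 0.08, Egr1 at -0.42 ± 0.09 and Myc at -0.62 ± 0.09. Areg stands on both the fetal-like and the YAP list, and Atf3 on both the AP-1 and the ATF4 list, so these counts are not independent. Cyr61 lost its call without day 3 replicates 2 and 3 and day 4 replicates 1 and 3 (0.0758, 0.0591, 0.114 and 0.0873), and so did Spry4 without day 3 replicate 2 (0.0561) and Etv4 without day 3 replicates 1, 2 and 3 and day 4 replicate 1 (0.0602, 0.0683, 0.109 and 0.116). Dusp5 lost its call without day 3 replicates 2 and 3 (0.0673 and 0.0714). Ctgf moved to -0.28 without day 4 replicate 1. The count of YAP and TEAD target genes called lower was 2 with all 12 libraries in 1 fit, 6 with the 9 monolayer libraries in 1 fit and 6 without day 4 replicate 1, against 10 above. The count of EGF receptor family genes called lower was 4 with all 12 libraries in 1 fit, 5 with the 9 monolayer libraries in 1 fit and 4 without day 3 replicate 2, against 8 above.

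The AP-1 motif TGANTCA was searched in the same 250-base windows, on both strands. It was in 5 of 14 matched fetal-like genes that fell (35.7%), in 2 of 8 that were not called (25%), in 11.1% of all genes called lower and in 5.7% of tested genes. The genes shown are the pair above with the largest decreases among those that hold it, and were chosen after the values were seen. Matches are in capitals.
Sprr1a (chr3:92485882-92486041, minus strand): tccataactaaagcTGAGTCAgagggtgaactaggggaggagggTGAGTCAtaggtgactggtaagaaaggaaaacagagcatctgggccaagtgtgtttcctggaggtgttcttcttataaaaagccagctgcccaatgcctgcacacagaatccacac
Plaur (chr7:24462403-24462482, plus strand): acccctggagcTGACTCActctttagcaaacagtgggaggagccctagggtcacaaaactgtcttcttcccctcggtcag
Sprr1a holds 2 matches, 146 and 116 bases before the start site. The TEAD motif GGAATG was in 3 of 7 matched YAP target genes that fell, in 53.3% of those not called and in 12.8% of tested genes, so its share was no higher in those that fell.

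Some genes of cell spreading fell. Of 49 genes of focal adhesions, which anchor actin fibres to the matrix, 12 fell and 1 rose. Tln2, a talin gene, stood at 228, 222 and 229 CPM at day 3 and 112, 138 and 131 CPM at day 4 (-0.84 ± 0.08, adjusted p = 1.3e-06), and the tensin gene Tns4 at 800, 717 and 681 CPM at day 3 and 434, 511 and 508 CPM at day 4 (-0.60 ± 0.07, adjusted p = 1.82e-05). Neither overlapped between days. The actin crosslinker genes Flna and Actn1 changed by -0.46 ± 0.09 and -0.41 ± 0.08, and the tropomyosin gene Tpm2 rose (0.33 ± 0.08). The matrix receptor chains Itga2 (-0.62 ± 0.08) and Itga6 (-0.43 ± 0.07) were the 2 of 13 tested integrin genes that fell (4 without day 4 replicate 2), and plasminogen activator gene Plat fell with the urokinase receptor gene Plaur (-0.54 ± 0.07 and -0.67 ± 0.09). Fibronectin (Fn1), a matrix protein, rose from 365 ± 7.66 to 484 ± 46.1 CPM (0.41 ± 0.07, adjusted p = 0.000593). The Eph receptor gene Epha2 fell from 560 ± 41.7 to 356 ± 31.7 CPM (-0.65 ± 0.07, adjusted p = 6.68e-06) while its ligand gene Efna1 rose from 62 ± 14.1 to 115 ± 19.2 CPM (0.88 ± 0.13, adjusted p = 0.000142). The count of focal adhesion and actin genes called lower was 4 with all 12 libraries in 1 fit, 7 with the 9 monolayer libraries in 1 fit and 7 without day 3 replicate 3, against 12 above.

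Some keratin and cornified envelope genes, which build the filaments and the shell of stratified epithelia such as skin, fell. Of 14 keratin genes 7 fell and 1 rose, and of 22 cornified envelope genes 8 fell and 1 rose. Krt4, a keratin of stratified epithelium, stood at 310, 261 and 243 CPM at day 3 and 102, 167 and 162 CPM at day 4 (-0.92 ± 0.13, adjusted p = 4.74e-05). Pkp1, a desmosomal plaque gene of the same tissues, stood at 153, 175 and 191 CPM at day 3 and 69.1, 99.5 and 85.7 CPM at day 4 (-1.03 ± 0.11, adjusted p = 3.01e-06). The groups did not overlap for either, and Pkp1 was the 1 of 12 tested desmosome genes that was called. The envelope precursor gene Lor went from 13.2 ± 0.982 to 6.41 ± 0.973 CPM (-1.04 ± 0.22), Ivl from 18.1 ± 2.36 to 9.22 ± 3.99 CPM (-0.97 ± 0.24) and the crosslinking enzyme gene Tgm1 changed by -0.91 ± 0.22. Krt20, the keratin of differentiated colonic surface cells, rose: it stood at 36.6, 37.3 and 47.2 CPM at day 3 and 81.7, 58.1 and 43.6 CPM at day 4 (0.60 ± 0.16, adjusted p = 0.0177), with day 4 replicate 3 below day 3 replicate 3. Among simple-epithelium keratins Krt8 changed by -0.21 ± 0.05, Krt7 by -0.22 ± 0.07 and Krt19 by -0.46 ± 0.06. Ivl lost its call without day 3 replicate 1 and day 4 replicate 1 (0.0536 and 0.0506), and so did Krt20 without day 3 replicates 1 and 2 and day 4 replicate 1 (0.0877, 0.0857 and 0.165) and Krt8 without day 3 replicate 2 and day 4 replicates 2 and 3 (0.0729, 0.0503 and 0.0593). Krt7 lost its call without day 3 replicate 1 and day 4 replicates 1 and 3 (0.22, 0.134 and 0.0573). Krt20 moved to 0.34 without day 4 replicate 1. The count of keratin genes called lower was 2 with all 12 libraries in 1 fit, 3 with the 9 monolayer libraries in 1 fit, 4 without day 3 replicate 1, 4 without day 4 replicate 2 and 4 without day 4 replicate 3, against 7 above. The count of cornified envelope genes called lower was 1 with all 12 libraries in 1 fit, 5 without day 3 replicate 2 and 4 without day 4 replicate 1, against 8 above.

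Some cell division genes fell. Of 49 DNA replication genes 5 fell (10.2%, median -0.48), of 44 replication-dependent histone genes 11 fell and 1 rose (25% and 2.27%, median -0.58) and of 70 mitosis genes 5 fell (7.14%, median -0.29). At an unadjusted p under 0.05 the lower counts were 17, 21 and 25. Over all 11985 tested genes, 2796 had such a p in either direction, so such counts are large in many lists. Mcm6, of the replicative helicase, stood at 22, 17.2 and 14.1 CPM at day 3 and 6.64, 11.5 and 6.85 CPM at day 4 (-1.08 ± 0.23, adjusted p = 0.00365), and Mcm3 changed by -1.17 ± 0.19. Top2a, which untangles replicated DNA, stood at 144, 126 and 118 CPM at day 3 and 75.9, 103 and 104 CPM at day 4 (-0.45 ± 0.11, adjusted p = 0.0074). The proliferation marker gene Mki67 stood at 499, 379 and 350 CPM at day 3 and 228, 350 and 352 CPM at day 4 and was not called (-0.40 ± 0.13, adjusted p = 0.0517). Day 3 replicate 1 was the highest library for both Top2a and Mki67, and day 4 replicate 1 the lowest. The cyclin genes Ccnd2 (-0.64 ± 0.09) and Ccnd1 (-0.30 ± 0.08), which start the cycle, fell, and the cycle inhibitor genes Cdkn1c (11 ± 2.77 to 23.2 ± 3.6 CPM, 1.07 ± 0.19, adjusted p = 8e-04) and Cdkn1b (0.64 ± 0.10) rose. Cdkn1a (p21) was not called (0.17 ± 0.08, adjusted p = 0.191). Nucleolar genes of ribosome assembly were lower for 5 of 46, with Nop56 at -0.72 ± 0.15. Histone genes have near-identical copies, so single members are uncertain. In the promoter windows, on both strands, the E2F motif (TTCCCGC or TTGGCGC) was in 2 of 5 replication genes that fell (40%), in 38.9% of those not called and in 12.1% of tested genes. In mitosis genes the CHR element (TTTGAA) was in 2 of 3 matched members that fell and in 38.2% of those not called (12.4% of tested genes), and the CCAAT box in 1 of 3 and in 78.2% (40.8% of tested genes). Top2a lost its call without day 3 replicate 1 (0.0588), and so did Ccnd1 without day 3 replicate 1 and day 4 replicate 1 (0.0849 and 0.0663). The count of DNA replication genes called lower was 8 with DESeq2, 10 with no filter on low counts, 1 with all 12 libraries in 1 fit, 2 with the 9 monolayer libraries in 1 fit, 3 with the replicate block, 3 without day 3 replicate 1, 3 without day 3 replicate 3, 3 without day 4 replicate 1 and 10 without day 4 replicate 2, against 5 above. The count of histone genes called lower was 4 with all 12 libraries in 1 fit, 3 with the 9 monolayer libraries in 1 fit, 5 without day 3 replicate 1 and 6 without day 3 replicate 3, against 11 above. The count of mitosis and spindle genes called lower was 12 with no filter on low counts, 2 with all 12 libraries in 1 fit, 2 with the 9 monolayer libraries in 1 fit, 3 with the replicate block, 0 without day 3 replicate 1, 3 without day 3 replicate 2, 2 without day 4 replicate 1 and 17 without day 4 replicate 2, against 5 above. The count of ribosome biogenesis genes called lower was 8 with no filter on low counts, 2 with all 12 libraries in 1 fit, 3 without day 3 replicate 1 and 8 without day 4 replicate 3, against 5 above.

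Enzymes and pumps that handle foreign compounds rose: 20 of 50 tested genes were higher (40%, median 0.45), against 4.86% of all genes. In the oxidising step, Cyp2c55 stood at 47.9, 62.3 and 68 CPM at day 3 and 234, 196 and 93.6 CPM at day 4 (1.56 ± 0.20, adjusted p = 2.47e-05), and Cyp2d34 at 35.7, 37.2 and 44.7 CPM at day 3 and 133, 103 and 102 CPM at day 4 (1.52 ± 0.11, adjusted p = 5.52e-08). Both are among the 10 largest increases, whose rule required no overlap between days. The esterase gene Ces1d, low at both days, went from 0.546 ± 0.317 to 3.69 ± 0.505 CPM (2.67 ± 0.53), and Cyp2d12 and Cyp2d9 changed by 2.38 ± 0.59 and 2.02 ± 0.45. Ces1d had enough counts to be tested only through day 4, and such members raise the share called higher. In the conjugating step, the sulfotransferase gene Sult1d1 changed by 1.27 ± 0.17 (adjusted p = 4.53e-05). The glutathione transferase genes Gsta3 and Gsta1 changed by 1.28 ± 0.17 (adjusted p = 2.89e-05) and 0.82 ± 0.11. The efflux pump genes Abcg2 and Abcb1a rose by 0.67 ± 0.13 and 0.52 ± 0.11. Receptors that sense such compounds were not called: Nr1i2 (PXR) at -0.22 ± 0.14 (adjusted p = 0.387), Nr1i3 (CAR) at 1.66 ± 0.59 (adjusted p = 0.0807) and Ahr at -0.27 ± 0.13 (adjusted p = 0.213). Cyp2d12 lost its call without day 3 replicates 2 and 3 and day 4 replicate 1 (0.0679, 0.0579 and 0.172), and so did Cyp2d9 without day 4 replicate 2 (0.0514). Abcb1a moved to 0.30 without day 4 replicate 1. The count of xenobiotic genes called higher was 16 with a minimum count of 50, against 20 above.

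Antioxidant genes controlled by NRF2, a factor released from its inhibitor KEAP1 under oxidative or electrophilic stress, rose for 13 of 36 (36.1%) and fell for 2. The quinone reductase gene Nqo1 stood at 28, 30.5 and 33.4 CPM at day 3 and 66.1, 57.4 and 58.1 CPM at day 4 (0.98 ± 0.11, adjusted p = 7.02e-06). The 2 subunits of the enzyme that starts glutathione synthesis rose together: Gclc stood at 99.2, 129 and 127 CPM at day 3 and 222, 184 and 209 CPM at day 4 (0.79 ± 0.10, adjusted p = 1.23e-05) and Gclm at 110, 115 and 115 CPM at day 3 and 218, 187 and 199 CPM at day 4 (0.83 ± 0.08, adjusted p = 1.07e-06). In all 3 genes the lowest day 4 library lay above the highest day 3 library. The carbonyl reductase genes Cbr1 (149 ± 21.3 to 321 ± 27.1 CPM, 1.10 ± 0.09, adjusted p = 1.99e-07) and Cbr3 (1.21 ± 0.13) and the peroxiredoxin gene Prdx6 (800 ± 32 to 1350 ± 144 CPM, 0.76 ± 0.07) rose. The 2 members that fell were Slc7a11, which is also on the ATF4 list, and Sqstm1, an autophagy receptor gene (-0.62 ± 0.09, adjusted p = 6.41e-05). The genes of NRF2 itself, Nfe2l2 (0.12 ± 0.07, adjusted p = 0.269), and of its inhibitor, Keap1 (0.24 ± 0.10, adjusted p = 0.157), were not called. The antioxidant response motif TGACNNNGC, searched on both strands, was in 14.8% of matched antioxidant and xenobiotic genes that rose and in 14.3% of tested genes. The count of antioxidant genes called higher was 8 with all 12 libraries in 1 fit, against 13 above.

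Interferon-stimulated genes, which limit viral growth and raise antigen display, were higher for 15 of 46 (32.6%, median 0.34), and genes of MHC class I, class II and peptide loading for 6 of 19 (31.6%, median 0.42). Besides Ifit1, the antiviral gene Rsad2 stood at 0, 1.33 and 0.517 CPM at day 3 and 1.26, 6.09 and 7.08 CPM at day 4 (2.84 ± 0.68, adjusted p = 0.00917), and Ifit3 at 3.51, 2.53 and 1.33 CPM at day 3 and 3.03, 7.55 and 9.21 CPM at day 4 (1.43 ± 0.41, adjusted p = 0.0323). Rsad2 was at 0 to 1.33 CPM at day 3, where 3 counts equal 0.21 to 0.293 CPM. It had enough counts to be tested only through day 4, and such members raise the share called higher. The regulator genes were more abundant: Irf1 stood at 26.4, 27.1 and 27.7 CPM at day 3 and 53.2, 54.8 and 46.2 CPM at day 4 (0.93 ± 0.12, adjusted p = 1.82e-05), and Stat2 and Irf7 changed by 0.78 ± 0.14 and 0.90 ± 0.18. Of antigen display, B2m, the light chain of class I molecules, changed by 0.43 ± 0.09 (adjusted p = 0.00267), the loading factor gene Tapbp by 0.54 ± 0.09 and the heavy chain gene H2-K1 by 0.33 ± 0.07. H2-Q10, H2-Q2 and H2-Q1, near-identical heavy chain genes whose shares are uncertain, changed by 1.47 ± 0.20, 1.05 ± 0.15 and 1.58 ± 0.40. The 4 leukocyte markers, summed, were at 0.703 to 2.8 CPM at day 3 and 1.45 to 7.82 at day 4. A list of 29 immune cell genes summed to 38.3 to 48.5 CPM at day 3 and 49.4 to 71.5 at day 4. Of its 4 tested members 1 was called higher (0 without day 3 replicate 3), and 4 were higher at an unadjusted p under 0.05. The part of leukocytes in these changes was not tested. Rsad2 lost its call without day 4 replicate 3 (0.0502), and so did Ifit3 without day 3 replicates 2 and 3 and day 4 replicates 2 and 3 (0.0859, 0.142, 0.0991 and 0.137) and H2-Q1 without day 3 replicate 2 and day 4 replicate 1 (0.0625 and 0.125). The count of interferon-stimulated genes called higher was 1 with all 12 libraries in 1 fit and 12 with a minimum count of 50, against 15 above.

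The interferon response motif, GAAA and GAAA with any 2 bases between them, on either strand, was in 5 of 17 matched members of these 2 lists that rose (29.4%), in 12 of 33 that were not called (36.4%) and in 2.95% of tested genes. The share was thus as high among members that were not called. The 3 genes with the largest increase among matched holders are shown, chosen after the values were seen, with matches on either strand in capitals.
Ifit1 (chr19:34640769-34640888, plus strand): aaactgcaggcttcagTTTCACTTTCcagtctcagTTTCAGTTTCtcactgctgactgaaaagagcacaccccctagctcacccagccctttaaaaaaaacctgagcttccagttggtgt
Ifit3 (chr19:34583369-34583528, plus strand): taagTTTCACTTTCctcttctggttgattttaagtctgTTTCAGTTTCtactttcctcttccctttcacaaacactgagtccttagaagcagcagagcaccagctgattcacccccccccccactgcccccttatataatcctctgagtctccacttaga
Rsad2 (chr12:26456453-26456572, minus strand): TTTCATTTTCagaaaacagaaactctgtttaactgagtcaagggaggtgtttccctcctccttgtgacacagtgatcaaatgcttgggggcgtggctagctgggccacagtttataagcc
Ifit1 holds 2 matches, 104 and 85 bases before the start site, and Ifit3 2 matches, at 156 and 122 bases.

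Absorptive surface genes rose in part. Of 33 tested colonocyte genes 13 rose and 3 fell (39.4% and 9.09%, median 0.28), and of 23 brush border genes 4 rose. Lypd8, a secreted flagella-binding protein of the colonic surface, stood at 112, 153 and 155 CPM at day 3 and 387, 434 and 261 CPM at day 4 (1.36 ± 0.13, adjusted p = 1.7e-06). The adhesion gene Ceacam20 changed by 1.03 ± 0.14 (adjusted p = 5.89e-05), and Tmigd1, low at both days, by 1.76 ± 0.40. Hpgd, which inactivates prostaglandins, rose (0.60 ± 0.10), while the prostaglandin synthesis genes Ptgs2 (-0.53 ± 0.09) and Pla2g4a (-0.63 ± 0.09) fell. Among microvillus genes, Ush1c stood at 137, 144 and 146 CPM at day 3 and 235, 200 and 203 CPM at day 4 (0.58 ± 0.08, adjusted p = 4.12e-05), and Cdhr5 and Espn changed by 0.49 ± 0.08 and 0.98 ± 0.26. The core microvillus gene Vil1 was not called (-0.20 ± 0.07, adjusted p = 0.0614). Car1, the most abundant colonocyte marker, stood at 1410, 1450 and 1430 CPM at day 3 and 1480, 1630 and 1100 CPM at day 4 and was not called (-0.03 ± 0.09, adjusted p = 0.901). Day 4 replicate 3 was the lowest library for Car1, and its change was 0.13 without that library. Aqp8, a water channel of surface cells, was too low to test, at 0.141 to 0.195 CPM at day 3 and 0.727 to 1.77 at day 4, and Car4 had no count. The HNF4 motif AAAGTCC was in 1 of 13 matched colonocyte and brush border genes that rose, in 0 of 26 not called and in 4.19% of tested genes. With all 12 libraries in 1 fit 0 colonocyte genes were lower, against 3 above. Espn lost its call without day 3 replicates 1 and 2 and day 4 replicate 1 (0.0747, 0.0551 and 0.0898).

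Ion transport genes changed in both directions. Of 17 sodium absorption genes 6 rose (35.3%), among them the sodium pump chain gene Atp1b1 (407 ± 3.8 to 617 ± 89.2 CPM, 0.60 ± 0.08, adjusted p = 3.72e-05), the pump modulator gene Fxyd4 (1.0 ± 0.26), the apical exchanger gene Slc9a2 (0.46 ± 0.14) and the protease inhibitor genes Spint1 (0.34 ± 0.08) and Spint2 (0.30 ± 0.07). The sodium channel subunit gene Scnn1a (0.10 ± 0.08, adjusted p = 0.529) and the low exchanger gene Slc9a3 (1.36 ± 0.59, adjusted p = 0.163) were not called. Of 29 chloride, bicarbonate and potassium transport genes 5 fell and 2 rose (1 without day 3 replicate 1). The chloride channel gene Cftr stood at 26.1, 22.6 and 28 CPM at day 3 and 16.2, 11.4 and 17.6 CPM at day 4 (-0.77 ± 0.17, adjusted p = 0.00529). The potassium channel gene Kcnn4, which drives secretion, changed by -0.67 ± 0.14 (adjusted p = 0.003), the bicarbonate importer gene Slc4a7 by -0.57 ± 0.08 and the water channel gene Aqp4 by -0.48 ± 0.10. The chloride-bicarbonate exchanger gene Slc26a3, of surface absorption, was not called (0.28 ± 0.22, adjusted p = 0.486). Fxyd4 lost its call without day 3 replicate 3 and day 4 replicate 1 (0.0922 and 0.0663), and so did Slc9a2 without day 3 replicates 1 and 2 and day 4 replicates 1 and 2 (0.186, 0.0928, 0.18 and 0.11). Spint2 lost its call without day 3 replicates 1 and 2 (0.0802 and 0.0529). Aqp4 moved to -0.32 without day 4 replicate 1. The count of sodium absorption genes called higher was 2 with all 12 libraries in 1 fit, 3 without day 3 replicate 1, 3 without day 3 replicate 2 and 3 without day 4 replicate 1, against 6 above. The count of chloride and potassium transport genes called lower was 3 with all 12 libraries in 1 fit and 3 with the 9 monolayer libraries in 1 fit, against 5 above.

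Junction genes were seldom called. Of 43 tested tight junction genes 2 rose and 2 fell (4.65% each way), close to the shares over all genes. Cldn4, a sealing claudin, stood at 280, 285 and 326 CPM at day 3 and 230, 201 and 217 CPM at day 4 (-0.46 ± 0.08, adjusted p = 0.000363). The day 4 libraries all lay below those of day 3. Amotl1, a scaffold that binds YAP, changed by -0.38 ± 0.08 (adjusted p = 0.00365). Of the 2 that rose, Marveld3 encodes an occludin relative (0.38 ± 0.11, adjusted p = 0.0379) and Csda (Ybx3) a transcription factor that binds the ZO-1 scaffold (607 ± 13.8 to 843 ± 34.9 CPM, 0.47 ± 0.06, adjusted p = 2.71e-05). Occludin (Ocln) stood at 160, 158 and 175 CPM at day 3 and 169, 171 and 151 CPM at day 4 and was not called (-0.01 ± 0.08, adjusted p = 0.98, with a change of 0.002 by RLE factors and by DESeq2). The scaffold gene Tjp1 (ZO-1) was not called (-0.07 ± 0.07, adjusted p = 0.569), nor were Cldn3 (0.07 ± 0.07, adjusted p = 0.601), Cldn7 (-0.09 ± 0.07, adjusted p = 0.454) and the low Cldn8 (0.14 ± 0.42, adjusted p = 0.888, or -0.02 without day 3 replicate 1) and Cldn15 (0.47 ± 0.41, adjusted p = 0.531). Cldn1 had no count in the 6 libraries, and the pore-forming Cldn2 was too low to test. Of 18 adherens junction genes 2 rose and 1 fell (2 without day 3 replicate 2 and 0 with all 12 libraries in 1 fit). Epcam, an adhesion molecule of all epithelial cells, stood at 977, 1010 and 970 CPM at day 3 and 1590, 1330 and 1250 CPM at day 4 (0.49 ± 0.07, adjusted p = 0.000108), and the actin linker gene Vcl changed by -0.30 ± 0.07 (adjusted p = 0.00595). E-cadherin (Cdh1) was not called (-0.15 ± 0.06, adjusted p = 0.109). Marveld3 lost its call without day 3 replicates 1, 2 and 3 and day 4 replicate 1 (0.139, 0.12, 0.0539 and 0.171). The count of tight junction genes called higher was 1 with all 12 libraries in 1 fit, 1 with the 9 monolayer libraries in 1 fit, 1 with the replicate block, 1 without day 3 replicate 1, 1 without day 3 replicate 2, 1 without day 3 replicate 3 and 1 without day 4 replicate 1, against 2 above. The count of tight junction genes called lower was 1 with all 12 libraries in 1 fit, against 2 above.

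Several lists of metabolism and its regulators had more members called higher than lower. Of 43 autophagy and lysosome genes 13 rose and 1, Sqstm1, fell, with the lysosomal enzyme genes Hexa (0.62 ± 0.11, adjusted p = 0.000905) and Ctsd (0.41 ± 0.07) and the cholesterol carrier gene Npc2 (0.50 ± 0.09) among the higher. Of 31 targets of the hypoxia-inducible factor 14 rose and 4 fell: the vasodilator peptide gene Adm (14.8 ± 2.66 to 30.5 ± 4.36 CPM, 1.04 ± 0.16, adjusted p = 0.000193), the collagen hydroxylase gene P4ha1 (0.59 ± 0.07) and the carbonic anhydrase gene Car9 (0.38 ± 0.08) rose, while Angptl4, Stc2 (-0.65 ± 0.11), Ndrg1 (1460 ± 260 to 941 ± 64.8 CPM, -0.63 ± 0.09, adjusted p = 8.47e-05) and the factor's own gene Hif1a (-0.28 ± 0.08) fell. Of 19 clock genes 7 rose, with Dbp (18.7 ± 2.57 to 34.7 ± 4.37 CPM, 0.89 ± 0.15, adjusted p = 0.000359), Per3 (0.67 ± 0.09) and Per1 (0.62 ± 0.14) the output and period genes. The labels give no hour of lysis, so day and time of day cannot be told apart for these genes. Ppargc1a, a driver of mitochondrial formation, rose from 30.2 ± 3.9 to 55 ± 9.49 CPM (0.86 ± 0.13, adjusted p = 0.000155), as did the acylcarnitine carrier gene Slc25a20 (0.77 ± 0.13) and the glycolytic gene Gpi1 (0.60 ± 0.07). Of 75 respiratory chain genes 5 rose (6.67%), near the 4.86% over all genes, with Ndufa6 at 0.60 ± 0.08. At an unadjusted p under 0.05, 19 respiratory chain genes were higher and 0 lower. Insig1, a brake on sterol synthesis, rose (0.68 ± 0.09, adjusted p = 4.32e-05). Hif1a lost its call without day 3 replicates 2 and 3 and day 4 replicate 2 (0.125, 0.113 and 0.122). The count of autophagy and lysosome genes called higher was 6 with all 12 libraries in 1 fit, against 13 above. The count of hypoxia genes called higher was 5 with all 12 libraries in 1 fit and 9 without day 3 replicate 1, against 14 above, and 1 rather than 4 was lower in that 12-library fit. The count of clock genes called higher was 2 with all 12 libraries in 1 fit, 4 without day 3 replicate 2, 4 without day 3 replicate 3 and 4 without day 4 replicate 1, against 7 above. The count of oxidative phosphorylation genes called higher was 9 with no filter on low counts, 2 with all 12 libraries in 1 fit, 2 with the 9 monolayer libraries in 1 fit, 3 with the replicate block, 3 without day 3 replicate 1, 10 without day 3 replicate 2, 2 without day 3 replicate 3 and 2 without day 4 replicate 1, against 5 above.

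Secretory, stem cell and signalling lists differed in their share of calls. Of 24 goblet cell genes 3 fell (5 with no filter on low counts), Agr2, the vesicle gene Sytl2 (110 ± 8.84 to 51 ± 5.85 CPM, -1.10 ± 0.10, adjusted p = 7.76e-07) and the mucus protein gene Fcgbp (-1.06 ± 0.25), while the mucin gene Muc2 stood at 9.57, 12.4 and 13.9 CPM at day 3 and 8.83, 10.9 and 4.72 CPM at day 4 and was not called (-0.54 ± 0.26, adjusted p = 0.207). Of 7 enteroendocrine genes 1 fell, the granule protein gene Chgb (-0.74 ± 0.17, adjusted p = 0.00656). Of 23 stem cell genes 3 fell and 1 rose: Sox9 (-0.56 ± 0.13), Cd44 (-0.52 ± 0.11) and Aqp4 against Prom1 (0.36 ± 0.06). By DESeq2 1 of these 23 was lower, Sox9 and Cd44 losing their calls, and with all 12 libraries in 1 fit 0 were lower and 0 higher. The stem cell receptor gene Lgr5 was low and not called (-0.68 ± 0.29, adjusted p = 0.158), and the Wnt feedback gene Axin2 was not called (-0.23 ± 0.10, adjusted p = 0.147). Of 18 Notch pathway genes edgeR called 0, with 1 higher and 1 lower at an unadjusted p under 0.05 and 0 higher and 0 lower by DESeq2. Of 30 chemokine, cytokine and NF-kB feedback genes 7 fell and 1 rose. Il1rn, the interleukin-1 receptor antagonist, stood at 926, 932 and 917 CPM at day 3 and 636, 579 and 636 CPM at day 4 (-0.58 ± 0.06, adjusted p = 3.05e-06), and the macrophage growth factor gene Il34 changed by -1.40 ± 0.31. Fcgbp lost its call without day 3 replicates 2 and 3 (0.0521 and 0.0721), and so did Chgb without day 3 replicate 1 (0.0542). Sox9 moved to -0.35 without day 4 replicate 1 and Cd44 to -0.34 without day 4 replicate 1. The count of cytokine genes called lower was 2 with all 12 libraries in 1 fit, 4 with the 9 monolayer libraries in 1 fit, 4 without day 3 replicate 1, 4 without day 3 replicate 2 and 4 without day 3 replicate 3, against 7 above.

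The change from day 3 to day 4 was then set against the change from day 4 to day 5, when the labelled resistance falls to 407 ± 53 ohm cm2, by testing the difference of the 2 changes over the 9 monolayer libraries. Of 12180 genes 157 differed (1.29%), 128 with a lower second change (1.05%) and 29 with a higher one (0.238%). Both changes share the day 4 libraries, and the genes below were singled out with their day 4 change known, so the test is not independent of that choice. The count was 371 without day 5 replicate 1, which had the fewest genes with a count, and 60 to 371 over the libraries left out, with 88 in a fit of all 12 libraries, 298 by DESeq2 and 352 with no filter on low counts.

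Several glutathione and antioxidant genes had their highest mean at day 4. Nqo1 stood at 30.4 ± 2.68, 60.1 ± 4.83 and 39.1 ± 6.77 CPM at day 3, day 4 and day 5, with a difference of the 2 changes of -1.61 ± 0.23 (adjusted p = 0.000456). Gclc stood at 117 ± 16.4, 203 ± 19.4 and 128 ± 8.53 CPM (-1.46 ± 0.17, adjusted p = 0.000151). Gclm, Ftl1, Gsta1 and Cbr1 had differences of -1.25 ± 0.17 (adjusted p = 0.000315), -1.30 ± 0.20 (adjusted p = 0.000992), -1.65 ± 0.26 (adjusted p = 0.00122) and -1.30 ± 0.16 (adjusted p = 0.000164). For these 6 genes the mean at day 5 lay below that of day 4. Division genes followed another course: Mki67 stood at 407 ± 79, 308 ± 70.4 and 36.3 ± 5.35 CPM (-2.70 ± 0.25, adjusted p = 6.5e-06) and Top2a at 128 ± 13.3, 93.6 ± 15.8 and 9.13 ± 0.651 CPM (-2.88 ± 0.22, adjusted p = 3.18e-07), so the larger decrease in their means came after day 4. The same held for Krt4, at 269 ± 34.4, 142 ± 35.7 and 14.1 ± 5.88 CPM (-2.39 ± 0.31, adjusted p = 0.000224). Hspa5, at 951 ± 138, 535 ± 37.4 and 541 ± 23.1 CPM, had its decrease between day 3 and day 4 (0.84 ± 0.16, adjusted p = 0.00779). Cldn4 was lowest at day 4, the day of highest resistance, at 295 ± 24.9, 214 ± 14.7 and 273 ± 26.5 CPM (0.81 ± 0.15, adjusted p = 0.00813). Of amino acid response genes, Psat1 fell more from day 4 to day 5 than from day 3 to day 4 (-1.33 ± 0.22, adjusted p = 0.00259). The difference for Asns did not pass (-0.26 ± 0.18, adjusted p = 0.65). The difference for Hspa5 lost its call without day 4 replicates 1 and 3 (0.0626 and 0.0888), and so did that for Cldn4 without day 4 replicates 2 and 3 (0.107 and 0.0629).

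**Figure D5:**
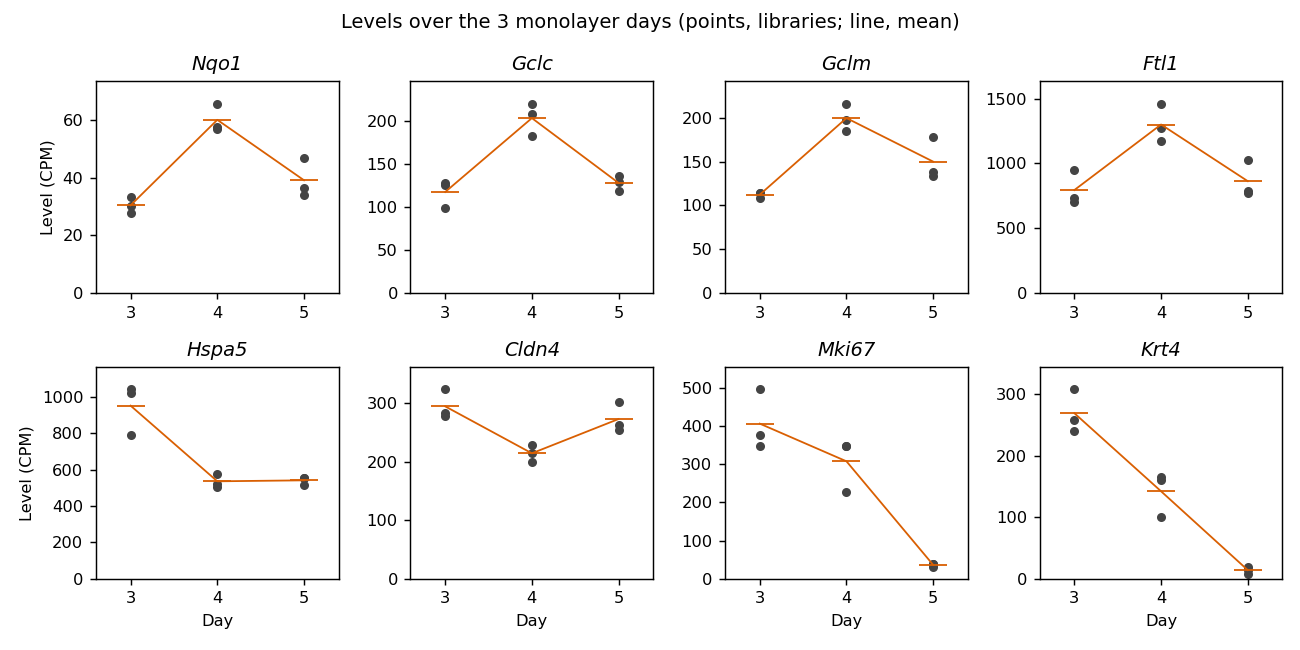
Level of 8 genes in each of the 9 monolayer libraries (CPM, scaled over the 9) by day, with the mean of 3 libraries per day joined by a line. The means of Nqo1, Gclc, Gclm and Ftl1 are highest at day 4, that of Hspa5 drops before day 4 and stays there, those of Mki67 and Krt4 drop most after it, and that of Cldn4 is lowest at day 4.

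Levels in crypts, scaled with all 12 libraries, are set beside some of these genes as a description. Cyp2c55 was at 990 ± 86.4 CPM in crypts against 61.1 and 179 at day 3 and day 4, and Lypd8 at 4090 ± 1350 against 144 and 370. Day 4 lay between day 3 and crypts for both. Trib3 was at 0.13 ± 0.225 in crypts and Sprr1a at 11.2 ± 9.41, below both days. Others moved away from the crypt level: Slc11a2 was at 22.4 ± 2.21 CPM and Agr2 at 1560 ± 152 in crypts.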

How the data were processed

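RNA of whole monolayers was isolated with the RNAqueous Micro kit, per the labels' protocols. Each library has 1 file of raw counts, deposited by the authors: reads assigned to each gene, not normalized. CASAVA 1.9, TopHat2 and HTSeq are named, with the builds mm9 and mm10 without a role, per the submitters' processing notes. Annotation and strand setting were not found in the labels or file headers, so genes with antisense or overlapping partners are uncertain. The 5 summary lines of the counter name no gene and were left out. They held reads in no gene (39.7 ± 0.808% of reads at day 3, 39.5 ± 0.802% at day 4) and reads without a unique alignment (17.8 ± 0.808% and 17.3 ± 0.404%). A gene with 3 counts in a library stood at 0.21 to 0.362 CPM, and such floors cover counting error only. A chi-square test told every pair of libraries of a day apart, so all were used.

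Counts were fitted in R 4.3.3 with edgeR 4.0.16 on the 6 libraries, with day as the term: filterByExpr with a minimum count of 10, TMM factors, and glmQLFit with glmQLFTest (the quasi-likelihood test), two-sided, with Benjamini-Hochberg adjustment over all genes tested and a call at an adjusted p under 0.05. The difference of successive changes was tested in the same way on the 9 monolayer libraries. The procedure was tested on simulated data. DESeq2 1.42.0, RLE factors, library totals, no filter, a minimum count of 50, wider fits, a replicate block, leaving out each library and, chosen after seeing the data, leaving out Rn45s and Malat1 were alternatives. The 66 gene lists and their members were chosen with earlier results of these data known. Named genes were the 10 largest called changes each way (mean of at least 5 CPM, no overlap, same direction with each library left out, unnamed models passed over), up to 3 called members of each list role (mean of at least 1 CPM) and a list named whatever its values. Not every gene so chosen is printed, and other list members were named after their values were seen. Promoters of 257 of 357 called list members matched RefSeq (GRCm38.p6).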

Additional observations from a re-analysis of the deposited data

How the results depend on the processing

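With all 12 libraries in the fit, 205 genes were called higher and 151 lower, 79 and 81 distinct list members, and 88 genes differed between the successive changes. With the 9 monolayer libraries 377 genes were called higher and 295 lower. Leaving out 1 library gave 378 to 578 higher and 355 to 528 lower, 134 to 174 and 141 to 190 list members, and 60 to 371 genes for the successive changes. That last count was 298 by DESeq2 and 352 with no filter. DESeq2 called 672 higher and 593 lower, with 465 genes given no adjusted p. With the replicate number as a block 444 and 430 genes were called. Deviations of same-numbered libraries correlated at -0.042, -0.001 and 0.003, so no shared deviation by number was seen. With 3 libraries per day, this cannot show whether same-numbered libraries share an animal or dish. No called gene named here changed direction under any alternative that gave it an adjusted p, but many lost their call. Of 268 called genes chosen to be named, 133 lost the call under at least 1 alternative. The other 135 kept it wherever they were given an adjusted p. A gene filtered out or given no adjusted p under an alternative was not counted as lost. Calls lost by DESeq2 include Abcb1a, Cd44, Ctgf, Cyp2d9, Ddit3, Grb10, Krt20, Pola1, Rsad2 and Sox9. Among genes not called, leaving out 1 library moved Car1 between -0.15 and 0.13, Cldn8 between -0.019 and 0.249, Hmox1 between -0.012 and 0.198, and Ocln between -0.037 and 0.054. Ocln was also at 0.002 by DESeq2, RLE factors or a minimum count of 50, and at 0.003 with Rn45s and Malat1 left out. A change of a gene at a few CPM was not detectable at this depth unless large.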

Other observations

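Genes of iron handling, a list put together after the values were seen, changed at the 2 membranes and in storage. Of 21 tested members edgeR called 6 higher and 1 lower. Slc40a1 (ferroportin), the exporter of iron at the base of the cell, stood at 92.1, 130 and 141 CPM at day 3 and 326, 252 and 216 CPM at day 4 (1.13 ± 0.13, adjusted p = 7.63e-06), beside the importer Slc11a2, whose levels are given above. Slc40a1 was higher in every day 4 library than in any day 3 library, as were 13.9% of all tested genes. So was Slc11a2, but the rule that chose the largest increases required this. Of storage, the ferritin genes Ftl1 and Fth1 changed by 0.71 ± 0.09 (adjusted p = 2.8e-05) and 0.46 ± 0.07 (adjusted p = 0.000227). The reductase genes Steap4 and Steap1 changed in opposite directions (1.38 ± 0.25 and -0.81 ± 0.22). The transferrin receptor gene Tfrc (-0.08 ± 0.07, adjusted p = 0.492), the ferroxidase gene Heph (0.18 ± 0.07, adjusted p = 0.144) and the heme oxygenase gene Hmox1 (0.11 ± 0.11, adjusted p = 0.589, or -0.012 without day 3 replicate 1) were not called. Ferritin genes have processed pseudogenes, so their counts are uncertain. Steap1 lost its call without day 3 replicates 1 and 3 and day 4 replicates 1 and 3 (0.0704, 0.12, 0.0762 and 0.0545).

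Butyrophilin-like genes, which gut epithelium uses to shape its resident T cells, and carbonyl reductases were looked at in the same way. Besides Btnl5, Btnl4 and Btnl6 were low and higher at day 4 (1.28 ± 0.38, adjusted p = 0.0375 and 2.19 ± 0.61, adjusted p = 0.0256). In all 3 of 5 tested members were higher, against 4.86% of all genes. Btnl6 (0.0703 to 0.976 CPM at day 3) and Btn2a2, not called, had enough counts to be tested only through day 4. The share among tested members therefore says little about the family. Of 12 carbonyl and aldo-keto reductases 5 were higher (41.7%), Cbr2 (23.5 ± 7.61 to 54.6 ± 13.8 CPM, 1.21 ± 0.19, adjusted p = 0.000181) and Akr1c19 (1.07 ± 0.12, adjusted p = 6.48e-06) among them. The 5 include Cbr1 and Cbr3, already given with the antioxidant genes, so this share is not a separate result. They also include Akr1c12, which lost its call without day 4 replicate 1 (0.0576). Of 15 retinoid genes 1 was called, Cyp26b1 (6.67%, near the share over all genes). Btnl4 lost its call without day 3 replicates 2 and 3 and day 4 replicates 2 and 3 (0.166, 0.0876, 0.0631 and 0.106), and so did Btnl6 without day 3 replicates 2 and 3 and day 4 replicates 1 and 2 (0.123, 0.0581, 0.0583 and 0.0721).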
